A study of Mus musculus with 2 samples.

Results

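The interferon regulatory factors are a family of transcription factors, and 8 mouse genes of the family, Irf1, Irf2, Irf3, Irf4, Irf5, Irf7, Irf8 and Irf9, were followed in 2 populations of cultured macrophages. They were taken by symbol, after each probe of the array had been given a RefSeq gene symbol through its transcript accession, and made up 8 of 22910 named genes and 13 of 56598 probes. Irf1, Irf3, Irf4, Irf7 and Irf9 had 2 probes each, and Irf2, Irf5 and Irf8 had 1 probe each. Primary macrophages were the adherent cells from total bone marrow of C57BL/6 mice after 5 days in M-CSF, the cytokine on which bone marrow monocytes become macrophages. Self-renewing macrophages were the cells that kept growing after passage 4 of the same kind of culture, in which adherent cells were repeatedly detached and seeded again and most of them stopped dividing and died. Both populations received recombinant human M-CSF at 100 ng/ml and came from mice labelled male, and the labels name no other treatment, introduced gene or deletion. The self-renewing cells arose as growing colonies, and their RNA is taken to be that of the mixed population, since the labels name no single clone. RNA of each population was hybridised to 1 Agilent mouse array with 1 dye, so there was no replicate, and no p-value or SD between replicates could be made.

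Every member of the family carries a DNA-binding domain with conserved tryptophans, which recognises repeats of the bases GAAA in the control regions of interferons and of the genes that interferons induce. IRF3 and IRF7 are phosphorylated when a cell senses foreign nucleic acid and switch on type I interferon genes, while IRF9 is the DNA-binding subunit of the complex ISGF3, which answers the interferon receptor. IRF1, IRF4, IRF5 and IRF8 also steer the development and activation of macrophages, dendritic cells and lymphocytes, and IRF4 and IRF8 often bind DNA together with the myeloid factor PU.1.

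Promoters of 4 members are shown first, each as the 250 bases before a transcription start in RefSeq (GRCm38.p6), written 5′ to 3′ on the strand of the gene. Irf4 is shown as the member that differed most between the arrays and Irf7 as the member with the largest difference towards self-renewing cells, and Irf1 and Irf2 as 2 of the 3 members whose promoters held a searched motif, and these last 3 were chosen after values and matches were seen. Capitals mark the motifs.
Irf4 promoter, chr13:30748983-30749232, plus strand: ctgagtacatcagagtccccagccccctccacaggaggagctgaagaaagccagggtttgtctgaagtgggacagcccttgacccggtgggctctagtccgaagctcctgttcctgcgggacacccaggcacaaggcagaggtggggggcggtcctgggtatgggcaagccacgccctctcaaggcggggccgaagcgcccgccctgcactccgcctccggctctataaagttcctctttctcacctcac
Irf7 promoter, chr7:141266425-141266674, minus strand: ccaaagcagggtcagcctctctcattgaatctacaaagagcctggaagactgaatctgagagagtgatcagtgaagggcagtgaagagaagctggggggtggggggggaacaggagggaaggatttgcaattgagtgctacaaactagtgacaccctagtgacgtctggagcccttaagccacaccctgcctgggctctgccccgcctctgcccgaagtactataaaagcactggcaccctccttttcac
Irf1 promoter, chr11:53769764-53770013, plus strand: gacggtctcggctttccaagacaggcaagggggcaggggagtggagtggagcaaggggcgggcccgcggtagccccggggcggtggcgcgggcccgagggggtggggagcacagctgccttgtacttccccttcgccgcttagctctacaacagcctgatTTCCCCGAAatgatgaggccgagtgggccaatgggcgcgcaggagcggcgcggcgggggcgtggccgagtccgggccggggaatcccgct
Irf2 promoter, chr8:46739495-46739744, plus strand: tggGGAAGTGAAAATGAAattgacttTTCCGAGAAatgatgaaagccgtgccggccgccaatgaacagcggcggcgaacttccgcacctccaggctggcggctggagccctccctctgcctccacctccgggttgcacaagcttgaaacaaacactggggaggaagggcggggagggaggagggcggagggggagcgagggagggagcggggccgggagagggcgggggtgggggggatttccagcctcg
Both strands were searched for the core of the interferon-stimulated response element, GAAANNGAA, for the core of the element that PU.1 and IRF4 or IRF8 bind together, GGAANNGAA, and for the interferon gamma activated site, TTCNNNGAA, which is its own reverse complement. Of 11 promoters listed for the 8 members, 1 held the first core, 1 the second and 3 the activated site. Over all 32817 promoters of this length, the shares were 7.12%, 6.99% and 7.01%. In the printed promoter of Irf1, an interferon gamma-induced activator, the activated site lay 90 to 82 bases before the start. In Irf2, which competes with IRF1 for the same sites, the composite core at 247 to 239 bases and the response element core at 241 to 233 bases overlapped, and an activated site followed at 224 to 216 bases. In a promoter of Irf8, not printed here, the activated site occurred at 171 to 163 and at 153 to 145 bases before the start. Irf1 and Irf8 each had another listed promoter, at a different start, which held none of the motifs. None of these letters was found in this window of Irf3, Irf4, Irf5, Irf7 or Irf9. A match is a description of the sequence and was not tested as a binding site.

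Signal here means the brightness of a spot after the scanner software's background correction. For comparison between arrays, it was expressed as log2 relative to the 75th percentile of the array's gene probes, which stood at a signal of 434 for primary and 446 for self-renewing cells, and a difference is always self-renewing minus primary on that scale. A difference of 1 log2 is a 2-fold difference. A probe is called detected where that software flagged it as well above background, which held for 34808 of the 56598 probes in primary and 33095 in self-renewing cells, and 0 gene spots were saturated. All 10 macrophage markers examined were detected on both arrays, with Csf1r, the M-CSF receptor, at 8.04 log2 in primary and 8.42 log2 in self-renewing cells and Adgre1, which encodes F4/80, at 7.23 and 7.75 log2. Of the 10, 8 were higher in self-renewing cells and 2 lower, where 47.9% of the named genes detected on at least 1 array were higher. At 2-fold 1 was higher, the phagocytic receptor gene Mertk (2.23 log2), and 1 lower, the Fc receptor gene Fcgr1 (-1.76 log2), beside 4.76% and 8.38% of those genes. The primary array went against its label of sex. Of 6 Y-linked genes, 4 were detected in self-renewing and 0 in primary cells, and Xist, expressed by the inactive X chromosome, was detected in primary cells only. With 1 array per population, no difference below can be given without either array, and the sex of the animals and the cell population cannot be told apart in it.

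Across the family, 1 member, Irf4, was at least 2-fold lower in self-renewing macrophages and 0 members were at least 2-fold higher. Among the 15516 named genes detected on at least 1 array, 8.38% were at least 2-fold lower and 4.76% at least 2-fold higher, so the family's counts of 1 and 0 of 8 are near that background. In all, 7 members were measured on both arrays, Irf1, Irf2, Irf3, Irf5, Irf7, Irf8 and Irf9, and Irf4 was detected in primary cells only, as were 7.62% of the named genes. The 8 differences had a median of 0.03 log2, against -0.02 log2 over all named genes, and 4 lay above 0 and 4 below, where 47.9% of all named genes lay above 0. Irf7, Irf9 and Irf1 were higher by 0.34 to 0.91 log2, and Irf3, Irf2, Irf8 and Irf5 lay within 0.15 log2 of 0.

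**Figure D1:**
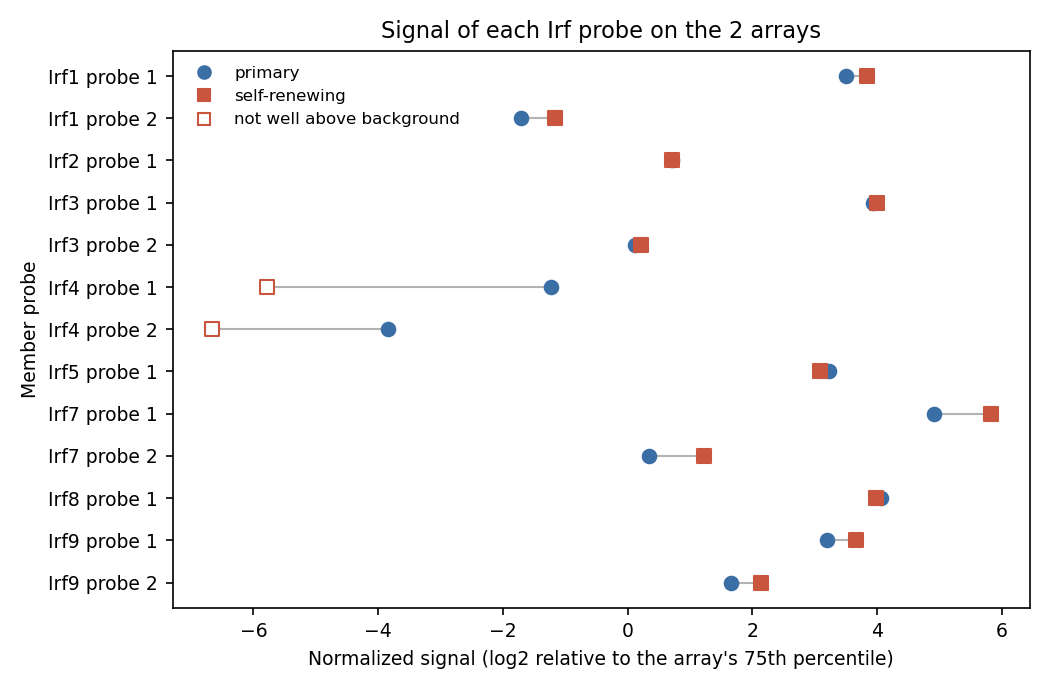
Normalized signal of each of the 13 Irf probes, in log2 relative to the array's 75th percentile, on the primary array (blue circles) and the self-renewing array (red squares), with 1 array per population and no error bars; open squares were not well above background. Both Irf4 probes are far to the left on the self-renewing array, both probes of Irf7, Irf9 and Irf1 are shifted to the right, and the markers of Irf2, Irf3, Irf5 and Irf8 nearly coincide.

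Irf4 is a lymphoid and myeloid factor needed for plasma cells, for some dendritic cells and for alternative activation of macrophages. Its brighter probe had a signal of 184 in primary macrophages and 8.15 in self-renewing macrophages, and its other probe 30.3 and 4.38. On the self-renewing array, neither probe was well above background. The level of the brighter probe was -1.23 log2 in primary cells, and in self-renewing cells it lay below the lowest detected signal of that array, which was -5.08 log2. Measured against that floor as processed here, Irf4 was at least 14.4-fold lower in self-renewing macrophages by the brighter probe, a bound of -3.85 log2. By the other probe it was at least 2.37-fold lower, a bound of -1.24 log2. The bound depends on the processing, at -1.87 log2 with the normexp background correction and -2.55 log2 with the mean over probes. The dimmer probe stood only -3.84 log2 in primary cells, so its bound could not reach further. The scanner's own error was 36.8% and 68.1% of the signal for these probes on the self-renewing array, which covers the spot and not the cells. A bound has no exact rank, so Irf4 was not ranked among the named genes.

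The lower Irf4 signal stood in a background of other cell types' genes, which were checked because bone marrow holds many cells besides macrophages. As background for each list here, 47.9% of all named genes were higher and 8.38% were at least 2-fold lower. Of 10 B cell markers, 6 were detected on at least 1 array and 5 of these had lower signal in self-renewing cells, 2 of them by at least 2-fold, with a median of -0.88 log2. Their summed signal was 2.15 times the 75th percentile in primary cells and 0.395 times in self-renewing cells. Most of the primary signal came from Cd79b, a chain of the B cell receptor, which was at least 54.4-fold lower (a bound of -5.77 log2, and -3.46 log2 with the normexp correction). Detected on both arrays, Cd79a went the other way, at 0.41 log2, and Pax5 differed by -0.03 log2. Ms4a1, Ebf1, Mzb1 and Blk were not well above background on either array. Of 10 dendritic cell markers, 8 were measured and 5 were lower, 2 by at least 2-fold, with a median of -0.51 log2. Ccr7, the homing receptor of activated dendritic cells, had bounds of -4.15 and -1.36 log2 by its probes, and -2.03 log2 with the normexp correction. The 3 that were higher were Zbtb46 (0.62 and 0.86 log2 by its probes), Siglech (0.09 log2) and Itgae, detected in self-renewing cells only (a bound of 0.52 log2). Xcr1 and Clec9a were not well above background on either array and the list's summed signal was 194 and 206, nearly all of it from Siglech. All 8 measured neutrophil markers were lower, 7 of them by at least 2-fold, and their summed signal was 119 in primary and 6.52 in self-renewing cells. The 7 measured T and NK cell markers had a median of -0.05 log2 and the 4 stromal markers -0.07 log2. The part of other cells in the Irf4 result was not tested, and in these bulk samples fewer cells of a type and less RNA per cell cannot be told apart.

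Irf7, the amplifier of the type I interferon response and itself an interferon-induced gene, was the member with the largest difference towards self-renewing macrophages. Its brighter probe gave a signal of 13082 in primary and 25294 in self-renewing cells, and its dimmer probe 553 and 1048. Both probes were thus higher in self-renewing cells by nearly the same factor, 1.88-fold (0.91 log2) and 1.84-fold (0.88 log2). Of the named genes, 869, or 5.60%, had a larger difference upwards. Irf7 remained just under 2-fold in 7 of 8 other ways of processing, with a lowest value of 0.86 log2, and passed it with the authors' scaled values, at 1.10 log2.

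Irf9 was also higher by both of its probes. The signal of its brighter probe was 3978 in primary and 5683 in self-renewing macrophages, and that of its other probe 1374 and 1970. The probes gave 0.47 and 0.48 log2, each 1.39-fold higher in self-renewing cells, and 14.5% of named genes had a larger difference upwards. Irf1 was measured at 4918 and 6383 by its brighter probe and at 133 and 200 by the other, so that it was 1.26-fold and 1.47-fold higher in self-renewing macrophages (0.34 and 0.55 log2). Larger differences upwards were found in 20.4% of named genes. A difference between 0.3 and 1 log2, such as those of Irf1, Irf7 and Irf9, was seen in 17.9% of all named genes. This band was not part of the planned comparisons and lies close around the values of these members.

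The other members gave nearly the same signal on both arrays. Irf3, the latent factor that is present before infection and induces interferon beta, had a signal of 6662 in primary and 7129 in self-renewing macrophages by its brighter probe, and 473 and 518 by the other, with differences of 0.06 and 0.09 log2. Irf5, which works downstream of Toll-like receptors in the induction of inflammatory cytokines, gave 4052 and 3809, a difference of -0.13 log2. Irf8, a determinant of the monocyte and dendritic cell lineages, gave 7237 and 7078, or -0.07 log2. Irf2 gave 711 and 729, or -0.01 log2 once each was set against its own array's 75th percentile. A larger difference upwards was found in 42.3% of named genes for Irf3, 48.4% for Irf2, 55.3% for Irf8 and 60.7% for Irf5. These 4 genes lay within 0.15 log2 of 0, as 28.6% of named genes did. That band too was not part of the planned comparisons and lies close around the members' values. The sign of the small differences of Irf2, Irf5 and Irf8 turned with the authors' scaling, under which they were 0.18, 0.06 and 0.12 log2.

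Differences between members can be set against how far probes for 1 gene disagree, which is a technical spread and says nothing of the spread between cultures. Over 5077 genes with several measured probes, this spread had a root mean square SD of 0.319 log2, or 0.451 log2 for a difference of 2 gene values, whereas the pairs of probes for Irf1, Irf3, Irf7 and Irf9 differed by 0.00 to 0.22 log2. In descending order of difference the members ran Irf7, Irf9, Irf1, Irf3, Irf2, Irf8, Irf5 and Irf4. The step from Irf5 to Irf4, at least 3.72 log2 by the brighter Irf4 probe as processed here, was larger than 0.451 log2. That spread came from probes detected on both arrays, however, and so does not describe the Irf4 probes, whose bounds were -3.85 and -1.24 log2. The steps from Irf7 to Irf9 (0.44 log2), from Irf9 to Irf1 (0.14 log2), from Irf1 to Irf3 (0.28 log2) and between Irf3, Irf2, Irf8 and Irf5 (0.06 to 0.07 log2) were smaller than 0.451 log2. Scanner error was 10.0% to 10.2% of the signal for each of the 11 member probes measured on both arrays. The brightness of different probes also depends on their sequence, so levels of the members were not ranked against each other.

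**Figure D2:**
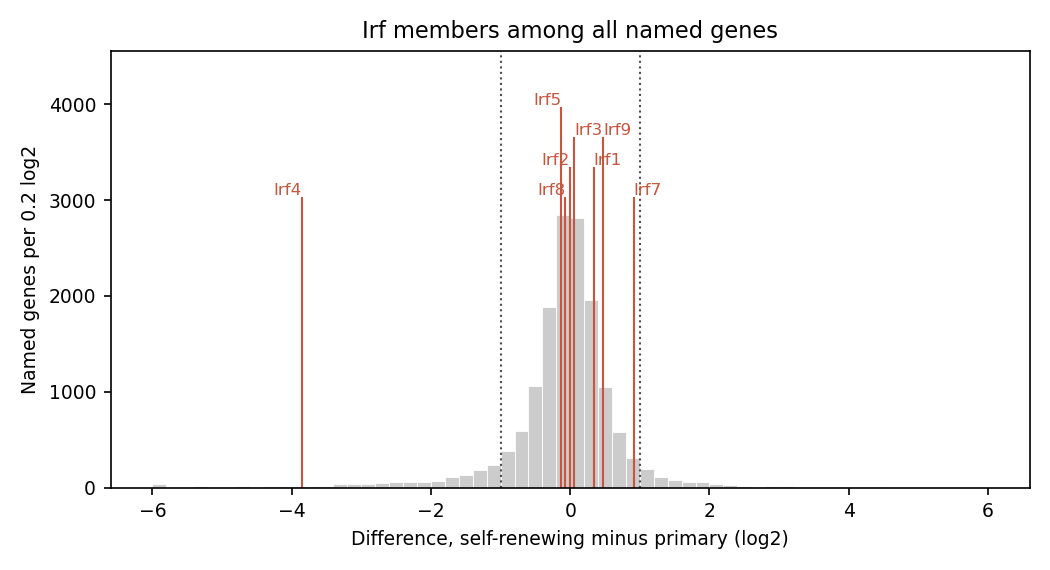
Number of named genes (vertical axis, grey bars of 0.2 log2) by the difference between self-renewing and primary macrophages in log2 (horizontal axis), with the outermost bars holding all genes beyond 6 log2. Red lines mark the 8 members, with Irf4 at its bound of -3.85 log2 and Irf7 at 0.91 log2 just inside the dotted line that marks a 2-fold difference.

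The genes around the family were then followed along the pathway, from ligands to targets, in lists chosen for their roles. Of 16 genes of type I, II and III interferons on the array, among them the alpha and beta genes that IRF3 and IRF7 can induce, 11 were detected on at least 1 array, all dim at -4.25 to -1.50 log2 on the primary array. Ifnb1 and Ifng were not well above background on either array. None of the 11 differed by 2-fold, 10 were lower in self-renewing cells and the median was -0.18 log2, which became 0.00 log2 with the authors' scaling. Of all named genes, 47.9% were higher. The interferon alpha genes are near-identical in sequence, so their probes may share signal and single values are uncertain.

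Of 9 genes of interferon receptors and Janus kinases, 8 were measured, 6 were higher, 0 differed by 2-fold and the median was 0.24 log2, beside 47.9% of all named genes higher. Both chains of the interferon gamma receptor were higher in self-renewing cells, Ifngr1 by 0.34 and Ifngr2 by 0.51 log2. The probes for the type I receptor disagreed. Those for Ifnar1 ran from -0.05 to 0.47 log2 and those for Ifnar2 from -0.32 to 0.56 log2, so no direction is given for either chain.

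All 17 sensors and adaptors upstream of IRF3, IRF5 and IRF7 were measured, with 11 higher, 6 lower and a median of 0.16 log2, beside 47.9% of all named genes higher. At 2-fold, 2 were higher and 2 lower, beside 4.76% and 8.38% of all named genes. Tlr3, a sensor of double-stranded RNA, was 2.29-fold higher in self-renewing macrophages and Tlr8 2.07-fold higher, both at dim levels of -2.79 and -2.45 log2 in primary cells, and both under 2-fold with the normexp background correction (0.64 and 0.71 log2). Tlr7, the sensor of single-stranded RNA that signals to IRF7, was 3.56-fold lower, with its 3 probes between -2.77 and -0.31 log2. Cgas, the sensor of cytosolic DNA that leads to IRF3, was 2.08-fold lower, and 0.87 log2 lower in place of 1.06 with the authors' scaling.

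Among the 11 kinases and scaffold proteins that lead to phosphorylation of IRF3, IRF5 or IRF7, 10 were higher and 1 lower, with a median of 0.21 log2, beside 47.9% of all named genes higher. With the mean over probes, 8 of the 11 were higher. At 2-fold as scaled here, 1 was higher and 0 lower, beside 4.76% and 8.38% of all named genes. The 1 was Ikbke, an inducible kinase for IRF3 and IRF7, which was 2.49-fold higher (1.31 log2, and 1.21 log2 by its other probe). Tbk1, its constitutive relative, differed by 0.09 log2.

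The partners of the family on DNA were divided, with 6 of 12 higher and 6 lower and a median of -0.04 log2, which turned to 0.14 log2 with the authors' scaling. At 2-fold, 1 was higher and 4 were lower, beside 4.76% and 8.38% of all named genes. Stat2, which works with IRF9 in ISGF3, differed by 0.08 log2, with its other probe at -0.39 log2. Spi1, which encodes PU.1, differed by 0.23 log2. Among the BATF proteins, which pair with JUN proteins and bind composite sites with IRF4 or IRF8, Batf was at least 56.4-fold lower in self-renewing macrophages (a bound of -5.82 log2 from a level of 0.73 log2 in primary cells, and -3.21 log2 with the normexp correction) and Batf3 3.45-fold lower, whereas Batf2 was 3.07-fold higher. Like Irf4, Batf was detected in primary cells only. Ets1, an ETS factor prominent in lymphocytes, was 2.43-fold lower, and Spib, the lymphoid relative of PU.1, was at least 2.02-fold lower from a level of -4.07 log2, both under 2-fold with the normexp correction (-0.59 and -0.28 log2) and Spib also with the authors' scaling (-0.83 log2).

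Of 23 target genes of ISGF3 on the array, all were measured, 19 were higher in self-renewing macrophages and 4 lower, with a median of 0.62 log2, beside 47.9% higher and a median of -0.02 log2 over all named genes. At 2-fold, 6 were higher and 1 was lower, beside 4.76% and 8.38% of all named genes. The 4 largest were Ifit3, an interferon-induced antiviral protein, at 3.62-fold (1.86 log2), Usp18, which removes ISG15 and dampens receptor signalling, at 2.97-fold, Ddx60, a helicase, at 2.73-fold, and Bst2, or tetherin, at 2.46-fold. Ifi44 alone went far the other way, at least 4.59-fold lower from a level of -2.89 log2, but under 2-fold with normexp (-0.65 log2). Irf7 is itself such a target, and its 0.91 log2 lay above the median of the list.

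Of 20 interferon gamma target genes, many of which need IRF1 or IRF8, 19 were measured, with 13 higher, 6 lower and a median of 0.29 log2, beside 47.9% of all named genes higher. At 2-fold, 3 were higher and 2 lower, beside 4.76% and 8.38% of all named genes. Cxcl10, a chemokine for T cells, was 2.87-fold higher in self-renewing macrophages, Cybb, a subunit of the phagocyte oxidase, 2.32-fold higher, and Irgm2, an interferon-induced GTPase, 2.06-fold higher (0.92 log2 with normexp). Ciita, the master regulator of MHC class II genes, was 9.79-fold lower, with its probes at -3.29 and -1.35 log2, and Cd274, which encodes PD-L1, was 3.42-fold lower. Of the 10 inhibitors of interferon signalling or of IRF proteins, 7 were higher and 3 lower, beside the same 47.9% of all named genes higher. In that list 0 differed by 2-fold, beside the same 4.76% higher and 8.38% lower of all named genes, and the median was 0.21 log2. With the authors' scaling, which moves the median of all named genes from -0.02 to 0.17 log2, medians of all these lists shift upwards by about the same amount, so a list is best read relative to the genes as a whole.

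**Figure D3:**
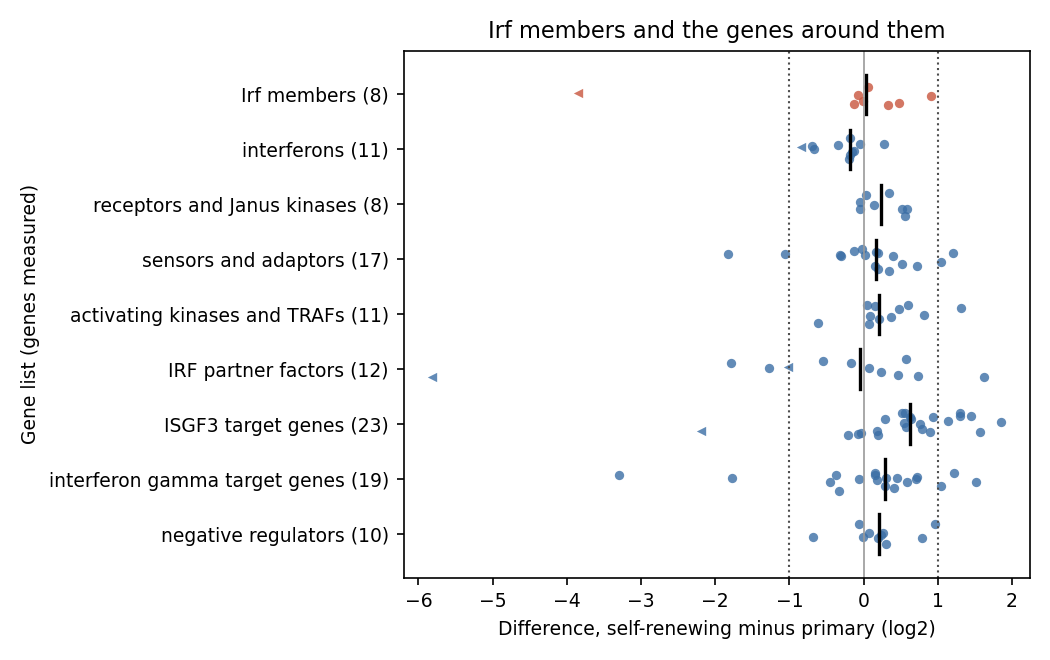
Difference between self-renewing and primary macrophages in log2 (horizontal axis) for the 8 Irf members (red) and for the measured genes of 8 pathway lists (blue, number of genes in brackets); triangles are bounds of genes detected on 1 array only, black bars are list medians and dotted lines mark 2-fold. The ISGF3 target genes have the highest median, 0.62 log2, and Irf4 and Batf are the far points on the left.

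The differences of the members were recomputed under 8 other ways of processing. Irf1 stayed between 0.28 and 0.52 log2, Irf9 between 0.45 and 0.66 log2 and Irf7 between 0.86 and 1.10 log2. Irf3 stayed between 0.04 and 0.24 log2. Irf4 was at least 2-fold lower in each of the 7 alternatives that gave it a value, from -4.54 log2 with no filter on background to -1.87 log2 with the normexp correction, and it had no value when only probes measured on both arrays were kept.

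**Figure D4:**
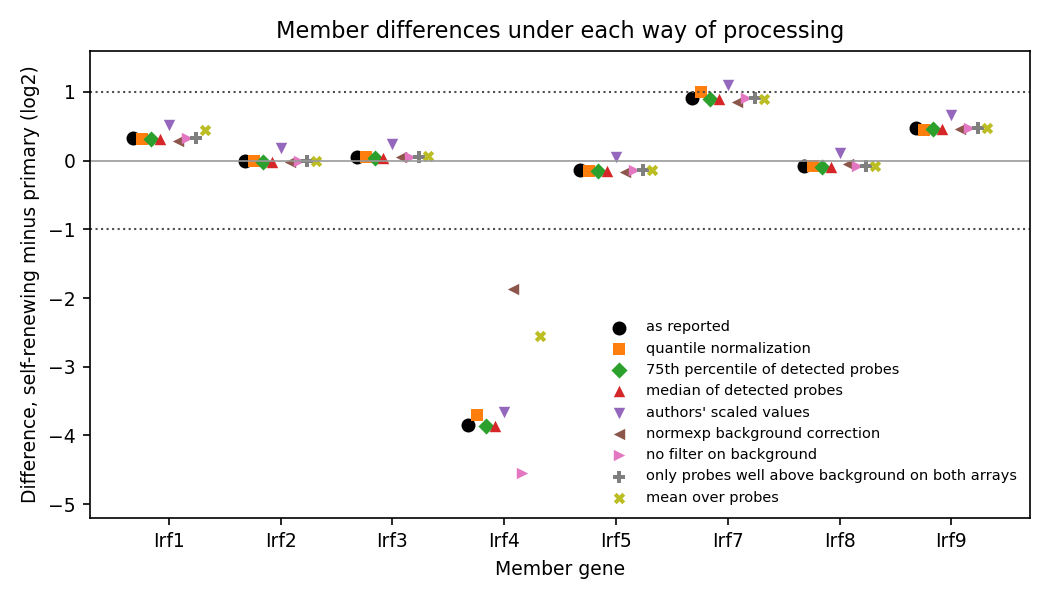
Difference between self-renewing and primary macrophages in log2 (vertical axis) for each member (horizontal axis) as reported (black circles) and under 8 other ways of processing (coloured symbols); dotted lines mark 2-fold. Irf4 moves between -4.54 and -1.87 log2 and stays below the lower line, Irf7 crosses the upper line with the authors' scaled values only, and the other members stay within 0.7 log2 of 0.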

How the data were processed

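Each of the 2 macrophage populations, primary and self-renewing, had its RNA hybridised with 1 dye to 1 Agilent mouse array. The authors deposited the scanner output of Feature Extraction 11.5.1.1, with intensity values corrected for background within the array and not scaled between arrays, together with a table of the same intensities times 1 constant per array, 1.07 for primary and 1.19 for self-renewing cells. How these constants were chosen is not given in the sources used here. The array design uses an earlier assembly than the promoters, mm9, so no probe coordinates are given.

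Control spots were dropped, as were 63 outlier-flagged gene spots per array, and repeat spots of a probe were averaged. The log2 values were computed here from the deposited intensities, relative to the array's 75th percentile. Each named gene took the values of its brightest detected probe (well above background on either array), and 58.3% of probes had a name. A probe well above background on 1 array only was given a bound, for which the other array's value was the probe's own signal there or that array's lowest signal well above background (-5.20 log2 primary, -5.08 log2 self-renewing), whichever was higher.

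Differences are described by size with a threshold of 2-fold, and no test was made, since 1 array per population gives no spread between replicates. This number of arrays limits the precision of every value. The steps were tested on simulated data. Named genes are the members with all their probes, 11 genes of the pathway and of macrophages, and the genes at least 2-fold different in each pathway list, at most 4 in each direction. The result for 1 of these genes is not reported here. In place of genes of like pattern, which 2 arrays cannot show, the rank of each member measured on both arrays among all named genes is given. Members and lists were chosen with earlier results of these data known. Marker genes of other cell types named beside Irf4 were chosen after their values were seen. The alternatives were quantile normalization, scaling by detected probes only (to their 75th percentile or their median), the authors' scaled values, normexp with an offset of 50 on the median spot signal, no filter on background, only probes detected on both arrays, and averaging the probes of a gene. A planned comparison of the proteins was not run. Software was R 4.3.3 (limma 3.58.1) and Python 3.11.15 (pandas 2.3.3, numpy 2.4.6, matplotlib 3.10.9).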

Additional observations from a re-analysis of the deposited data

How the results depend on the processing

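Of 63 values of members recomputed under 8 alternatives, 60 stayed within the probe spread of 0.319 log2 of the value reported, and the other 3 were those of Irf4, at -1.87 log2 with normexp, -4.54 log2 with no filter on background and -2.55 log2 with the mean over probes. Many of the 63 could hardly move. For members detected on both arrays, dropping the filter or keeping only probes on both arrays returned the same values. Averaging probes changes nothing for Irf2, Irf5 and Irf8, and scaling by detected probes or by the authors' constants moves every gene alike. The count of 60 is therefore no measure of certainty. The count of members at least 2-fold higher was 1 in place of 0 with the authors' scaled values (Irf7, 1.10 log2), and the count at least 2-fold lower was 0 in place of 1 when only probes on both arrays were kept, since Irf4 then has no value. The authors' scaled values moved the medians to 0.21 log2 for the members, 0.0041 for interferons, 0.43 for receptors and Janus kinases, 0.35 for sensors and adaptors, 0.40 for kinases and scaffold proteins, 0.14 for partners, 0.81 for ISGF3 targets, 0.48 for interferon gamma targets and 0.40 for inhibitors, beside 0.17 for all named genes. The median of partners was 0.15 log2 with probes on both arrays only, and that of interferon gamma targets 0.18 log2 with the mean over probes. Over all named genes, 739 were at least 2-fold higher and 1300 lower as reported, 429 and 750 with normexp, 1192 and 2336 with no filter, 588 and 782 with probes on both arrays only and 1035 and 1069 with the authors' scaled values, so that higher genes made up 36.2% of these calls as reported and 49.2% with the authors' scaling. The cause of these shifts was not tested, apart from the constants themselves, which raise every self-renewing value alike.

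With 1 array per population there was no replicate to leave out, and no difference carries an error from replicate cultures. No paired analysis was possible because each population has 1 array. The Irf4 difference is limited by the floor of the self-renewing array, and its size is not known. The bound itself moves with the processing, from -3.85 log2 as reported to -1.87 log2 with normexp. Irf2, Irf5 and Irf8 have 1 probe each, so no other probe bears on their values.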

Other observations

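Among genes detected on at least 1 array, those next to Irf4 in the order of the annotation were looked at after its value was seen. Undetected genes between them were passed over. On one side, Dusp22, a phosphatase, differed by 0.04 log2, Uqcrfs1, a subunit of respiratory complex III, by -0.16 log2 and Mboat1, a lysophospholipid acyltransferase, by -1.23 log2. On the other, Exoc2, of the exocyst, differed by 0.25 log2, Hus1b by 0.39 log2 and Foxq1, a forkhead factor, by 0.06 log2. All 6 were well above background on both arrays, a share raised by the way they were taken. Only Mboat1 differed by 2-fold or more, where 8.38% of all named genes were at least 2-fold lower and 4.76% at least 2-fold higher. Whether the Irf4 difference is shared with its region was not tested.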
